A study of Mus musculus with 10 samples.

Results

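The uterus of 5 control mice on gestation day 3.5 (GD 3.5) is described here gene by gene, as the level each gene had and how far that level differed from animal to animal. All 5 animals carried floxed alleles of Arid1a on both chromosomes (Arid1a f/f) and no Cre recombinase, so the gene was not deleted, and no comparison of genotypes is made. The members are the genes whose mean over the 5 libraries reached 1 count, which were 25066 of the 45706 genes listed (54.8%), and they held 99.998% of the counts. Of these, 17005 were protein coding, out of 21519 protein-coding genes listed. Another 16829 genes had no count in any of the 5 uteri, and 3811 were counted but had a mean under 1.

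The study sequenced RNA of whole uteri from pregnant females, as 50 bp, paired end mRNA libraries of intact adult mice. Its methods state an age of 12 to 15 weeks, a mixed background of C57BL/6 and 129 substrains, mating with wildtype males and the use of littermates where possible. A part of each uterus was frozen whole, so epithelium, glands, stroma, muscle, vessels and immune cells are mixed in every library. The labels name 5 separate samples and say no more of the animals, and the spread given here is that between these 5 samples. In such bulk RNA, fewer cells of a type and less RNA per cell cannot be told apart.

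On this day the mouse uterus is about to become receptive to the blastocyst. Progesterone from the corpora lutea, acting through its receptor, stops the division of the epithelium and lets the stroma divide, while a short rise of estrogen induces leukemia inhibitory factor (LIF) in the glands. LIF signals through the gp130 receptor and STAT3 in the epithelium, and Indian hedgehog passes the progesterone signal from the epithelium to the stroma. Posterior HOX genes pattern the uterus, and some are needed in its stroma for implantation.

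Levels are in CPM, a gene's count divided by the library's total and multiplied by 1000000, when 1 gene is followed across uteri, and in TPM, a like measure of transcripts which also divides by the length of the gene's exons, when genes are compared with each other. The libraries held between 65351817 and 72702411 counts, so that 3 counts, the least called detected, stood at 0.0413 to 0.0459 CPM. Uteri are numbered 1 to 5 as in the labels. Uterus 1 stood apart more often than any other, since 277 of the 846 genes with 1 uterus far from the other 4 had uterus 1 in that place, and values that rest on it are also given without it. Xist, which the inactive X chromosome of females makes, stood between 1735 and 3128 CPM in the 5 libraries of these females, and each of the 7 listed Y-linked genes had a mean under 1 count.

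The genes with the most RNA belonged to mitochondria, translation, the cytoskeleton, collagen and antibodies. Only 57 genes had a mean of at least 1000 CPM, 2385 had at least 100 and 10891 at least 10. Between 1256 and 1297 genes held 50 percent of the counts of a uterus. By CPM, mt-Co1, a subunit of cytochrome c oxidase, led with 14275 CPM in uterus 1 and 10641 CPM in uterus 3, and all mitochondrially encoded genes together took 3.01% to 4.01% of the counts. This share covers assigned counts only. Genes such as mt-Co2, mt-Co3 and mt-Atp6 share most of their 50-base stretches with other genes and had few counts, so the share may be too low. Col3a1, a fibrillar collagen, was the highest nuclear gene by CPM after Eef1a1 and stood at 4741, 7355, 7934, 5216 and 5624 CPM in uteri 1 to 5. By TPM, the translation factor Eef1a1 led the nuclear genes with 11755 TPM ± 1330 (SD, n = 5), followed by Igkc, the constant part of the antibody kappa light chain, with 8719 TPM ± 3034. Tmsb4x, which binds actin monomers, had 5513 TPM, Ctsd, a lysosomal protease, 4689 TPM, and Acta2, smooth muscle actin, 4493 TPM. Eef1a1 and Rplp1 share many 50-base stretches with other annotated genes, so their levels are uncertain.

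**Figure D1:**
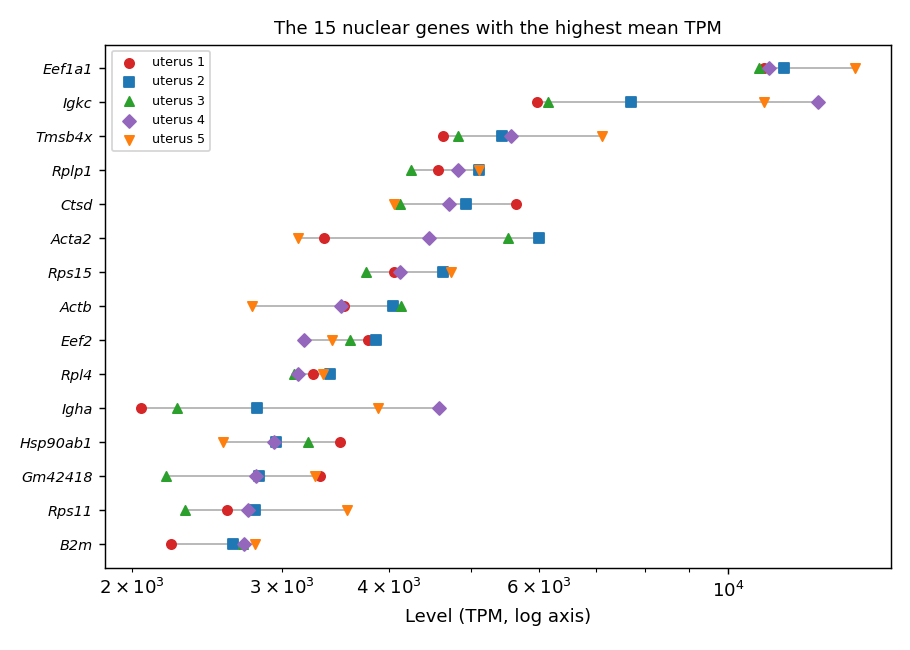
Level of the 15 nuclear genes with the highest mean TPM, with 1 marker for each of the 5 control uteri and a line over their range, on a log axis. Eef1a1 has the highest mean though its range overlaps that of Igkc, and the ranges of Igkc and Igha, both antibody genes, are the widest.

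Both ovarian steroid receptors were abundant and close in level. Esr1, the main estrogen receptor, stood at 614, 515, 555, 533 and 480.1 CPM in uteri 1 to 5, and Pgr, the progesterone receptor, at 393, 235, 337, 296 and 306 CPM. Per length they had 142 and 132 TPM, Esr1 was above Pgr in 3 of the 5 uteri, and the ranges overlap, so their order was not resolved. With 5 animals a paired exact permutation test cannot give a two-sided p under 0.0625, and orders are therefore given as counts of uteri. Nr3c1, the glucocorticoid receptor, had 53.7 TPM. The membrane estrogen receptor Gper1 had 9.35 TPM and the mineralocorticoid receptor Nr3c2 3.65 TPM. Esr2, the second nuclear estrogen receptor, was close to the floor, with 0.0918 to 0.371 CPM.

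Among the 20 listed receptors and co-regulators, all passed the minimum of 1 count. For the 19 with a mean of at least 100 counts, the median coefficient of variation (CV, the SD over the mean of the 5 uteri) was 9.21%, beside 11.1% for all 14484 such genes. The highest per length was Hsd11b2, the enzyme that inactivates glucocorticoids, with 608 TPM. It stood at 333, 329, 291, 292 and 318 CPM, a range of little width. Nr2f2 (COUP-TFII), a stromal receptor downstream of hedgehog, differed least, with 428, 397, 425, 416 and 401 CPM (CV 3.39%). Fkbp4, the co-chaperone of the progesterone receptor, had 243 CPM in uterus 5 and 302 to 323 CPM in the other 4. Of the 20 genes, 13 were highest in uterus 1, the place where 22.3% of all genes with a mean of at least 100 counts had their highest value.

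Genes known to be induced by progesterone were present at high level and moderate spread. All 20 listed passed the minimum, with a median CV of 13.8%. Hdc, which makes histamine in the luminal epithelium, stood at 458, 472, 388, 439 and 388 CPM. Acod1 (Irg1), the enzyme that makes itaconate, stood at 149, 169, 187, 158 and 143 CPM. Gata2, a partner of the progesterone receptor in the epithelium, had 183 TPM, and Lrp2, an endocytic receptor, 137 TPM. The other end of the list held Cyp26a1, which degrades retinoic acid, with 2.92 TPM, and Wnt4, which acts in decidualization, with 5.69 TPM. Prap1, a secreted epithelial protein, varied most, with 1.01, 0.977, 1.48, 1.97 and 3.36 CPM (CV 55.8%). Uterus 5 was the highest for this gene, and the other 4 ran from 0.977 to 1.97 CPM.

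The estrogen-regulated list was less even, with a median CV of 30.9% over its 17 members of at least 100 counts. Igf1, a growth factor of the stroma, led with 385 TPM and stood at 1008, 875, 1061, 1112 and 1287 CPM. Complement C3 stood at 129.8, 292, 294, 280.3 and 190.2 CPM, low in uterus 1. Ccnd1, the cyclin of the G1 phase, stood at 108, 199, 236, 158 and 129 CPM, and Olfm1, a secreted glycoprotein of the epithelium, at 61.1, 152, 81.6, 132 and 78.6 CPM. Sprr2f, a cornified-envelope protein of the estrogen-treated epithelium, stood at 4.33, 5.45, 3.52, 11.5 and 17.7 CPM. Uteri 4 and 5 were high for Sprr2f, and the other 3 lay close together. Greb1, an early estrogen target, was highest in uterus 1 with 41.3 CPM and lay between 15.9 and 23.7 CPM in the others. Sprr2a1 had no count in any uterus, but 96.3% of its 50-base stretches are shared with another annotated gene, so this says little of its RNA.

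Lactoferrin, Ltf (chr9:111019271-111042767, GRCm38, forward strand), is the estrogen-induced milk protein whose promoter drives the Cre of the study's other mice. It stood at 11.7, 3.48, 2.17, 2.61 and 3.83 CPM in uteri 1 to 5, a mean of 4.75 CPM ± 3.93 (SD). Uterus 1 was far above the others, and without it the mean was 3.02 CPM ± 0.764. In level, Ltf ranked 12430 of all genes. Arid1a itself (chr4:133679008-133756769, reverse strand), the ARID subunit of the BAF form of the SWI/SNF chromatin remodeler, stood at 251, 208, 208, 195 and 200.5 CPM, a mean of 212 CPM ± 22.3. Its uterus 1 value lay apart from the other 4, which had a mean of 203 CPM ± 6.21, and it ranked 797 by level.

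The subunits of SWI/SNF were among the least variable lists. Their median CV was 7.13% over 20 members, all but Actl6b, the neuronal actin-like subunit, which had 0.0438 CPM in uterus 5 and none elsewhere. Smarcd2 led with 135 TPM, followed by Smarcc2 with 120.4 TPM and Smarca4, 1 of the alternative ATPases, with 107 TPM. Smarca4 stood at 198, 201, 214, 197 and 150.5 CPM, low in uterus 5. The other ATPase, Smarca2, had 89.4 TPM and was below Smarca4 in 4 of 5 uteri, with ranges that overlap. Their order was not resolved, since with the length of the longest transcript in place of all exons Smarca2 had 166 TPM and Smarca4 83.6 TPM, in 5 of 5 uteri. Arid1a (66.3 TPM) was above Arid2, the ARID subunit of PBAF (44.5 TPM), in 5 of 5 uteri with ranges apart. Arid1b, its alternative in BAF, had 42.0 TPM, below Arid2 in 5 of 5 uteri with overlapping ranges.

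Hedgehog signaling from epithelium to stroma was represented at every step except for Shh. Ihh, the ligand made by the luminal epithelium, stood at 39.9, 35.8, 32.8, 43.9 and 33.6 CPM and had 23.0 times the TPM of Dhh, in 5 of 5 uteri. Shh had 2 counts in uterus 3 and none in the others, against a floor of 3 counts. The receptor Ptch1 had 80.7 TPM, the transducer Smo 80.2 TPM and the target Gli1 129.6 TPM. Smo differed little between animals (CV 2.46%), while Gli1 stood at 215, 144, 169, 171 and 207 CPM. Hhip, which binds and restrains the ligands, stood at 4.60, 8.54, 7.76, 15.1 and 13.2 CPM and varied most of this list (CV 43.2%). Hand2, the stromal factor that restrains epithelial growth, had 164 TPM and a CV of 6.15%.

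In the LIF pathway the shared receptor gp130 was far above the ligand, and the LIF-specific chain was closer to it. Lif stood at 11.2, 10.6, 12.7, 9.70 and 6.34 CPM (8.36 TPM), highest of its family with 6.72 times the TPM of Il6. Uterus 5 was lowest, and uterus 3 highest. Il6st, which encodes gp130, had 312 TPM and stood at 1017, 955, 1076, 945 and 839.9 CPM. Lifr, the specific chain, had 16.4 TPM and Osmr, the chain for oncostatin M, 9.45 TPM. Il6st, Il11ra1, Lifr and Osmr kept that order in 5 of 5 uteri with ranges apart, but with the longest transcript as length Osmr (16.1 TPM) came above Lifr (14.2 TPM). Jak2 and Jak1, the kinases, had 250 and 195 TPM, and Stat3 had 93.2 TPM with 260.4, 279.8, 289, 199.9 and 207 CPM. Msx1, a homeobox gene of the epithelium before attachment, had 207 TPM against 2.87 TPM for its relative Msx2.

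In the EGF family, Egfr was the first receptor with 51.3 TPM, then Erbb2 with 32.9 and Erbb3 with 27.4 TPM, each order seen in 5 of 5 uteri with ranges apart. Erbb4 had a mean of 2.8 counts and was at the floor. Egfr stood at 174, 139, 163, 171 and 167 CPM, low in uterus 2. Of the ligands, Areg led with 25.0 TPM, above Tgfa (8.94 TPM) in 5 of 5 uteri with ranges apart. Hbegf, which is induced around the blastocyst at attachment, had 4.67 TPM, and Epgn stood at or near the floor. In the FGF family, Fgfr2, the receptor of the epithelium, had 62.4 TPM and lay above Fgfr1 with 22.8 TPM in every uterus. Fgf1 stood at 74.9, 44.8, 43.5, 87.4 and 62.3 CPM and was the first of the ligands, 3.65 times Fgf2 in TPM.

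Wnt5a was the dominant WNT ligand. It stood at 331, 256, 267, 297 and 297 CPM, and its 132 TPM were 7.55 times those of Wnt9a, the next. Wnt9a, Wnt11, Wnt16, Wnt7a and Wnt5b lay between 17.5 and 11.6 TPM with overlapping ranges, and neighbours in that order changed places between animals. Wnt7a, which the luminal epithelium makes, stood at 14.6, 10.1, 7.82, 10.9 and 11.7 CPM. Secreted antagonists were higher than most ligands, with Sfrp2 at 186 TPM, Dkk3 at 84.3 TPM and Sfrp4 at 80.5 TPM. Sfrp1 stood at 14.4, 66.9, 42.7, 30.1 and 32.9 CPM and Sfrp4 at 48.6, 156, 103, 64.4 and 98.7 CPM, both lowest in uterus 1 and highest in uterus 2. Dkk1, a strong WNT inhibitor, had a mean of 0.8 counts and lay below the minimum.

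**Figure D2:**
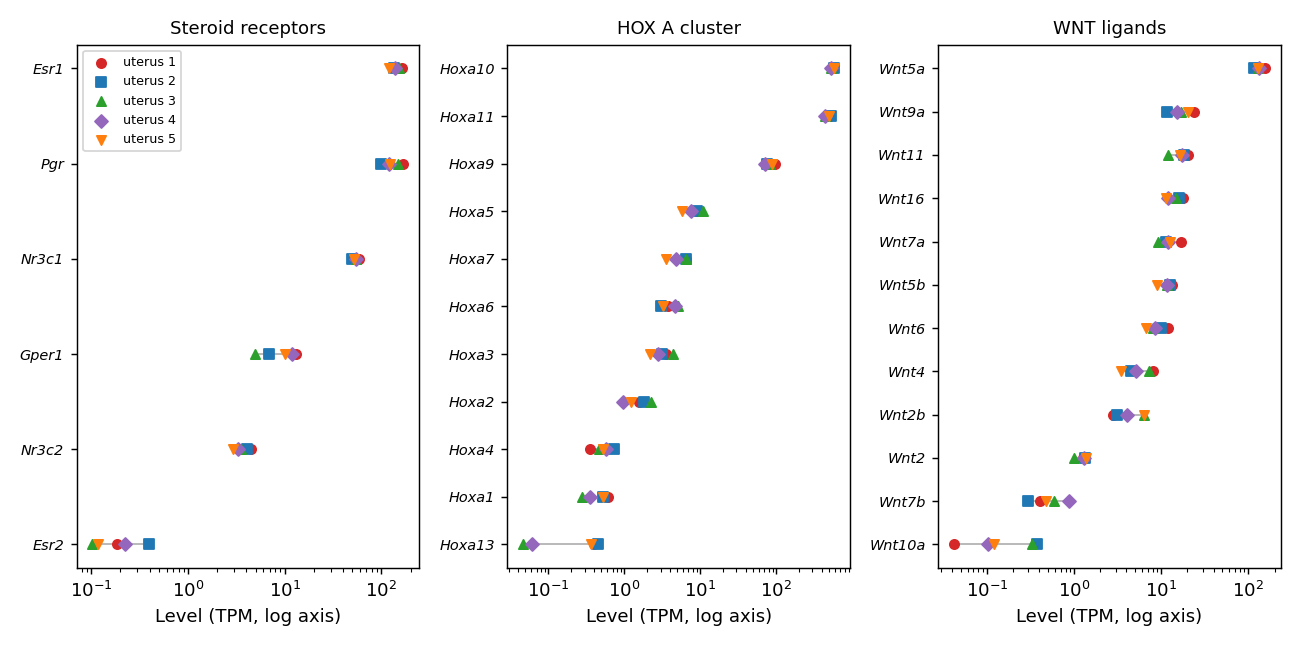
Levels of 6 steroid receptors, the HOX A cluster and the WNT ligands in order of mean TPM, with 1 marker per control uterus and a line over the range, on log axes. Esr1 and Pgr overlap, Hoxa10 and Hoxa11 stand far above the rest of their cluster, and Wnt5a lies to the right of all other WNT ligands.

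The HOX A and D clusters had their highest levels in the posterior genes. Hoxa10, which is needed for implantation, stood at 504, 534, 459, 494 and 549 CPM (555 TPM, CV 6.99%). Hoxa11 stood at 324, 342, 270.4, 285 and 330.2 CPM (485 TPM) and lay below Hoxa10 in 5 of 5 uteri, though the ranges overlap. They were followed by Hoxa9 with 83.3 TPM, and the next gene, Hoxa5, had 8.50 TPM. Hoxa13, the most posterior, which marks the vagina and cervix, had 0.0306 to 0.316 CPM. Hoxa11 shares 35.0% of its exon length with an antisense gene, Hoxa11os, which had 61.4 CPM, and reads of the pair cannot be told apart there unless strand was used. In the D cluster Hoxd10 (216 TPM), Hoxd9 (154 TPM), Hoxd8 (91.1 TPM) and Hoxd11 (41.7 TPM) kept this order in all 5 uteri with ranges apart, and Hoxd12 and Hoxd13 were near the floor. Of the 8 measured genes of this cluster, 6 were lowest in uterus 2, the place of 22% of all genes with a mean of at least 100 counts. In the B cluster the 8 measured genes ranged from 12.3 TPM for Hoxb9 to 71.1 TPM for Hoxb6, and Hoxb13 had no count. The C cluster was low, with 8.79 TPM for Hoxc6 as its highest member, and Hoxc12 and Hoxc13 had no count.

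Some secreted proteins of glands and lumen differed widely between uteri, while the list as a whole did not, with a sum that ran 1.27-fold from lowest to highest. The shorter list of glandular epithelium ran 1.79-fold, and 1.25-fold without uterus 1. Spink1, a trypsin inhibitor, stood at 49.2, 24.3, 11.7, 16.3 and 13.3 CPM, 4.20 times as high in uterus 1 as in uterus 3, and without uterus 1 it lay between 11.7 and 24.3 CPM. Cxcl15 (lungkine), a gland product, stood at 46.5, 35.5, 38.8, 60.9 and 51.7 CPM. Apoe led the list with 711 TPM and Wfdc2, a protease inhibitor of epithelia, had 414 TPM. Prss28 and Prss29, implantation serine proteases of glands, had 0.602 CPM each in uterus 1 and at most 0.0963 CPM in the others. Dcpp1 and Dcpp3 had no count, although 46.5% and 45.8% of their stretches are shared with another gene. The gland factor Foxa2 varied little by comparison, at 13.7, 13.5, 11, 14.0 and 10.7 CPM. In the luminal list, Calb1, a calcium-binding protein, stood at 669, 421, 365, 555 and 497 CPM, and 7 of the 8 genes were lowest in uterus 3, where 22.3% of all genes had their lowest value.

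Of the enzymes that turn arachidonic acid into prostaglandins, Ptgs1 was far above Ptgs2. Ptgs1 (COX-1) stood at 65.2, 45.3, 55, 67.5 and 56.3 CPM and Ptgs2 (COX-2), which is induced at attachment, at 3.85, 1.71, 2.75, 5.27 and 2.91 CPM. The ranges are far apart, with 53.3 TPM against 2.57 TPM. Pla2g4a, the phospholipase that frees arachidonic acid, had 64.1 TPM and Hpgd, which degrades prostaglandins, 132 TPM. Of the receptors, Ptger3 (70.3 TPM), Ptger4 (46.9 TPM), Ptgfr (23.9 TPM), Ptger2 (12.8 TPM) and Ptgir (6.04 TPM) kept that order in 5 of 5 uteri, with ranges apart at each step. Ptgir varied most, with 2.63 CPM in uterus 1 and 3.72 in uterus 5 against 6.67 to 8.07 in the others.

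The markers of the labelled tissue were present, since epithelium, stroma, muscle and vessels each had every listed marker above the minimum. All 14 epithelial, 12 stromal, 13 myometrial and 12 endothelial markers had a mean of at least 100 counts. Summed over the list, stroma had 9322 TPM ± 1473 (SD, n = 5), myometrium 12177 ± 2890, epithelium 1924 ± 214 and endothelium 996 ± 152. Cldn3, a tight-junction protein, led the epithelium with 455 TPM and stood at 167, 184, 118, 183 and 151 CPM. Cdh1, the epithelial cadherin, stood at 275, 235, 199, 260.0 and 218 CPM, and 11 of the 14 markers were lowest in uterus 3, beside 22.3% of all genes. Cdh5, the endothelial cadherin, led the vessels with 244 TPM. Its values were 310.4, 283, 319, 261 and 258 CPM. Of the 12 endothelial markers, 9 were highest in uterus 3 and 10 lowest in uterus 5, places taken by 16.7% and 22.9% of all genes.

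Muscle genes differed as a block. Acta2 stood at 2009, 3707, 3236, 2796 and 2012 CPM, Myh11, the smooth muscle myosin, at 1895, 3197, 2957, 2036 and 1528 CPM, and Cnn1, calponin, at 322, 627, 512, 479 and 371 CPM. Uterus 2 was highest for 10 of the 13 markers, where 18.2% of all genes had their highest value, and uteri 1 and 5 were low. Summed, the list ran from 9375 TPM in uterus 1 to 15648 TPM in uterus 2, 1.67-fold. Oxtr, the oxytocin receptor of the muscle, was modest with 12.4 TPM. Fibrillar collagens moved likewise, with Col1a1 at 3304, 4413, 4674, 2809.8 and 2863 CPM, high in uteri 2 and 3. Acta1, skeletal actin, which smooth muscle also makes, stood at 69.3, 209.6, 192, 177 and 115 CPM, while the skeletal myosins Myh1 and Myh4 were at or near 0.

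**Figure D3:**
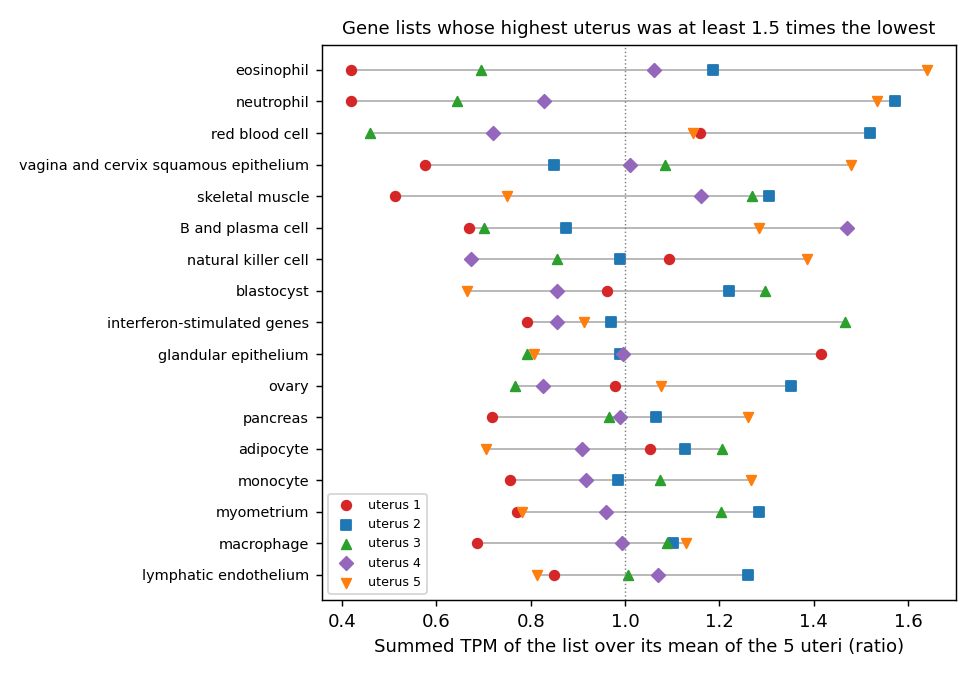
Summed TPM of the 17 gene lists whose highest uterus was at least 1.5 times the lowest, each divided by its mean over the 5 control uteri, with 1 marker per uterus. Uterus 1 is lowest for eosinophil, neutrophil, macrophage and monocyte markers and highest for glandular epithelium, and uterus 3 is highest for interferon-stimulated genes.

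Across the 55 lists, a ratio of highest to lowest uterus of at least 1.5 was reached by 17, of which 9 were cell types, 7 other tissues and 1 a function list. Leaving out uterus 1 left 13. By contrast, 13 lists had a ratio under 1.25, among them progesterone-regulated genes (1.11), steroid receptors (1.15), HOX A genes (1.15) and SWI/SNF subunits (1.20). The lists overlap in part, and 49 of them had a median CV above the 11.1% of all genes.

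Several immune cell lists were among those with the widest range. Antibody genes were abundant, with Igha, the heavy chain of secreted IgA, at 1490.1, 2104, 1608, 3496 and 3039 CPM and Jchain, which joins IgA molecules, at 600.2, 766, 621, 1610.1 and 1576 CPM. Uteri 4 and 5 were high for both, and uteri 1 and 3 low. Of the 10 B and plasma cell genes, 6 were highest in uterus 4, as were 14.8% of all genes. B cell genes were rare by comparison, with Cd79a at 3.36, 4.22, 3.66, 7.40 and 6.22 CPM and Ms4a1 (CD20) at a mean of 13.4 counts. All antibody segments together took 0.309% to 0.741% of the counts.

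Macrophage markers were low in uterus 1. The summed list stood at 487, 784, 775, 707 and 803 TPM, a mean of 711 TPM ± 130.3 with all uteri and 767 TPM ± 41.9 without uterus 1. C1qb, a complement chain made by macrophages, stood at 24.6, 49.7, 47.4, 43.5 and 54.3 CPM, and Mrc1, the mannose receptor, at 23.7, 65.3, 60.0, 54.7 and 60.8 CPM. Uterus 1 lay apart from the other 4 for both. Adgre1 (F4/80) stood at 16.8, 29.6, 33.2, 29.4 and 38.0 CPM, and 11 of the 13 markers were lowest in uterus 1, a place held by 23.4% of all genes. Cd14 did not share this, at 50.4, 54.7, 47.3, 62.6 and 57.9 CPM. Ccr2, the receptor of inflammatory monocytes, stood at 50.3, 62.5, 60.3, 68.9 and 98.7 CPM, highest in uterus 5.

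Granulocyte genes were few and uneven. Retnlg, a product of neutrophils, stood at 0.743, 12.5, 3.53, 2.55 and 11.5 CPM, and Ccr3, the eotaxin receptor, at 0.112, 4.68, 3.08, 2.40 and 5.27 CPM. Uterus 1 was the lowest for both, and for Ccr3 it lay at the level of 8 counts, apart from the other 4. The summed eosinophil list ran from 7.16 TPM in uterus 1 to 28.1 TPM in uterus 5 (3.92-fold, and 2.36-fold without uterus 1), and the neutrophil list from 29.2 TPM in uterus 1 to 109 TPM in uterus 2 (3.75-fold, and 2.44-fold without it). The granule genes Epx, Camp and Elane, which maturing granulocytes make, had a mean under 1 count. Mast cell proteases were highest in uterus 2, with Mcpt4 at 2.05, 6.16, 1.53, 1.64 and 0.789 CPM and Cpa3 at 3.10, 4.72, 1.82, 2.09 and 1.10 CPM, and 8 of the 9 mast cell genes had their highest value there, beside 18.2% of all genes. Hdc and Kit, which lead that list by level, are also made by other cells of the uterus.

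Natural killer cell genes differed between uteri more than T cell genes did, with median CVs of 30.4% and 19.6%. The natural killer list summed to 306, 277, 240, 189 and 388 TPM in uteri 1 to 5, with uterus 5 highest for 10 of 18 genes and uterus 4 lowest for 11, places held by 28% and 9.45% of all genes. Gzma, a granule protease, stood at 7.17, 11.6, 7.01, 7.51 and 25.4 CPM. Gzmc, a granzyme of activated cells, was different, with 10.6 CPM in uterus 1 and 0.619 to 2.18 CPM in the others. Ncr1 (NKp46) stood at 10.8, 14.0, 9.23, 8.15 and 14.2 CPM. Of the T cell genes, Trac stood at 1.71, 1.61, 1.76, 1.96 and 1.75 CPM and Foxp3, the factor of regulatory T cells, had a mean of 8.8 counts.

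Interferon-stimulated genes differed together, with uterus 3 high and uterus 1 low. Of the 18 listed, all with a mean of at least 100 counts, 15 were highest in uterus 3 and 15 lowest in uterus 1, beside 16.7% and 23.4% of all genes, and the median CV was 33.5%. Ifit1, an inhibitor of viral translation, stood at 13.8, 27.2, 48.8, 20.4 and 21.7 CPM, and Isg15, a secreted protein that is also joined to other proteins, at 6.66, 15.2, 25.0, 13.6 and 13.4 CPM. Irf7, a factor that amplifies interferon, stood at 22.6, 38.4, 63.3, 29.6 and 30.1 CPM. Zbp1, a sensor of nucleic acids, varied most, at 4.44, 10.5, 17.9, 5.87 and 6.64 CPM. Irf1 (CV 6.27%) and Xaf1 (CV 8.48%) differed little. Rsad2 (viperin) did not follow the block, with 18.0, 11.7, 23.5, 14.7 and 26.4 CPM, highest in uterus 5. Summed, the list stood at 724, 888, 1341, 783 and 835 TPM, a 1.85-fold range, which was 1.71-fold without uterus 1 and 1.23-fold without uterus 3.

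The interferon-stimulated response element, bound by factors that interferon activates, was searched as GAAANNGAAA on both strands of RefSeq promoters (250 bases before to 50 after the start). It occurred in 9 of the 14 promoters found for the list (64.3%), and in 459 of 14547 promoters of measured genes (3.16%). The 250 bases before the start are shown for 3 of the genes named above, with the element in capitals, and it stands at bases −104 and −85 from the start in Ifit1, at −78, −72 and −66 in Isg15, where the copies overlap, and at −120 in Rsad2. They come from GRCm38.p6, on the forward strand at chr19:34640639-34640888 for Ifit1 and on the reverse strand at chr4:156200819-156201068 for Isg15 and chr12:26456453-26456702 for Rsad2.
Ifit1: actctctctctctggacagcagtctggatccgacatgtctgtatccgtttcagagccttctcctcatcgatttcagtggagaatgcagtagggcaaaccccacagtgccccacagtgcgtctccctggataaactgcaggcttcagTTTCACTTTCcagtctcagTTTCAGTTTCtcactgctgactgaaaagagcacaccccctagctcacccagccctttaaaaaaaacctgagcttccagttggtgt
Isg15: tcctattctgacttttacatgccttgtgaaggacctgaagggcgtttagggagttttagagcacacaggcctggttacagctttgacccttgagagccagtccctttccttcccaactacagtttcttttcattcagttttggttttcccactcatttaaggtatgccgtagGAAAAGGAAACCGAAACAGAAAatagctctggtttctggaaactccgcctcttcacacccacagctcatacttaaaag
Rsad2: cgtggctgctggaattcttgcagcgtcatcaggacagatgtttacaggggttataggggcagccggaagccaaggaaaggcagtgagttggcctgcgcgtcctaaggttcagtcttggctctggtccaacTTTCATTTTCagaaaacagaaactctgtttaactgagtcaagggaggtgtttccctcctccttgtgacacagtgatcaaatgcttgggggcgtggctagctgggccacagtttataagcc

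Clock genes differed in another way, with uterus 1 high. Of 18 genes, 11 were highest in uterus 1, beside 22.3% of all genes. Nr1d1 (REV-ERB alpha), a repressor at the core of the clock, stood at 45.3, 23.9, 12.8, 16.0 and 19.8 CPM, and Dbp, an output factor, at 31.7, 17.6, 11.2, 17.5 and 18.1 CPM. Nr1d2 stood at 135, 75.2, 52.2, 80.8 and 107 CPM and Per3 at 40.2, 22.9, 18.4, 30.5 and 35.7 CPM. These 4 genes were all highest in uterus 1 and lowest in uterus 3. Genes whose daily peak lies elsewhere showed less of it, with Arntl (BMAL1) lowest in uterus 1 at 24.0 CPM against 26.5 to 30.1 CPM, and Clock at 155, 151, 158, 140.0 and 157 CPM. The hour at which each uterus was taken is not given in the labels.

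The E-box CACGTG, which the CLOCK and BMAL1 pair binds, reads the same on both strands and was found in 5 of the 15 promoters matched for this list (33.3%), beside 1319 of 14547 (9.07%). Ciart, a target and repressor of that pair, has the letters at −116, −58 and −44, and Cry1, a repressor of the clock, at −60. Both lie on the reverse strand, at chr3:95882229-95882478 and chr10:85185055-85185304, and the E-boxes are in capitals. The CArG box of smooth muscle genes was found in 0 of 10 promoters matched for the myometrium list and in 203 of 14547 (1.4%), which says only that this window holds no match.
Ciart: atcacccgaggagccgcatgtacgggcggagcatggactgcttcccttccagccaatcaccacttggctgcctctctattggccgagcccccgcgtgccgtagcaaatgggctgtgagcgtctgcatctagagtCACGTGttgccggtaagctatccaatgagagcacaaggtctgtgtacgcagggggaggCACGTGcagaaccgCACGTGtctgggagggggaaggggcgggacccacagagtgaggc
Cry1: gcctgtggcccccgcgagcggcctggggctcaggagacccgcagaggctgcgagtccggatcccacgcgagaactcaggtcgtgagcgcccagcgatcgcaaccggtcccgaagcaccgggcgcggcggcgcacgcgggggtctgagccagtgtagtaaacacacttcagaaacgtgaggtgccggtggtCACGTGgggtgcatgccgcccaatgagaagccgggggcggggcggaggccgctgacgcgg

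RNA of genes typical of dividing cells was present in every uterus. All 20 proliferation genes had a mean of at least 100 counts, with 14 highest in uterus 3 and 16 lowest in uterus 5, beside 16.7% and 22.9% of all genes. Mki67, the Ki-67 antigen, stood at 251, 181, 283, 233 and 177 CPM, and Top2a, the topoisomerase of mitosis, at 236, 263, 329, 261 and 184 CPM. The replication helicase Mcm6 stood at 58.7, 85.3, 97.8, 93.5 and 81.4 CPM, low in uterus 1, which was not the case for Mki67. Ribosomal proteins went the other way, with 9 of 10 highest in uterus 5 and 9 lowest in uterus 3, beside 28% and 22.3% of all genes. Rps3 stood at 1058, 1224, 1001, 1219 and 1543 CPM.

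Genes that respond to handling and stress differed to a moderate degree between uteri. A CV does not show how far they were induced in all 5, which was not tested. Immediate early genes, which respond within minutes, had a median CV of 16.0%, with Fos at 10.9, 6.57, 7.87, 8.0 and 9.84 CPM and Jun at 135, 115, 116, 117 and 113 CPM, apart in uterus 1. Heat shock genes had a median CV of 14.6%. Hypoxia and glycolysis genes were lowest in uterus 5 for 10 of 18, beside 22.9% of all genes, with Pkm at 442, 474, 450.0, 445 and 339 CPM. Of the genes often used as references, Ywhaz had a CV of 5.68%, Gapdh of 10.3% and Actb of 12.9%.

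Most markers of the embryo were near the floor, and those of neighbouring organs differed in level. Of the oviduct list, Pax8 stood at 29.7, 33.9, 31.8, 33.9 and 30.8 CPM, Pax2 at 34.6, 30.2, 23.9, 32.9 and 24.3 CPM and Ovgp1, the oviductal glycoprotein, at 30.1, 18.1, 13.2, 20.9 and 16.6 CPM. Foxj1, the factor of ciliated cells, had 0.444 to 1.05 CPM. The list summed to 60.8 TPM ± 10.4 (SD, n = 5), and Pax2 and Pax8 are factors of the whole Müllerian tract. Nanog, Sox2 and Pou5f1, of the inner cell mass, had means of 7.0, 6.0 and 3.6 counts, and Cdx2, of the trophectoderm, 1.0 count, while Gata6 with 9.26 TPM is also made by muscle. Steroid-forming enzymes of the corpus luteum were uneven, with Cyp11a1 at 0.196, 6.63, 0.0612, 1.05 and 2.80 CPM and Hsd3b1 at 0.0140, 4.92, 0, 0.806 and 2.04 CPM. Both were highest in uterus 2 and lowest in uterus 3, and Lhcgr, the receptor for luteinizing hormone, was also highest in uterus 2 with 1.09 CPM. Whether ovarian tissue was present was not tested, and Cyp19a1, Fshr and Zp3 stayed under 3 counts on average. Krt5, of squamous epithelium, stood at 0.112, 3.41, 1.25, 3.97 and 5.27 CPM, but Krt6a and Dsg1a had no count. Haemoglobin Hbb-bs, a measure of blood in the tissue, stood at 41.1, 49.1, 11.9, 23.9 and 40.8 CPM, lowest in uterus 3. Pancreatic, adipose and nerve markers were present in part, and Adipoq, Lep, Ucp1 and Amy2a5 had a mean under 1 count.

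Spread between uteri depended on the level. The median CV was 84.5% for genes with a mean of 1 to 10 counts, 35.0% from 10 to 100, 17.6% from 100 to 1000, 9.19% from 1000 to 10000 and 9.43% above. For the 14484 genes with a mean of at least 100 counts it was 11.1%, with quartiles of 7.39% and 17.1%, where counting alone would give 2.18%. Of these genes, 1355 (9.36%) had a CV under 5% and 337 (2.33%) above 50%. The biological CV that edgeR fitted to all measured genes, with counting noise taken out, was 23.5%, and 20.3% without uterus 1.

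**Figure D4:**
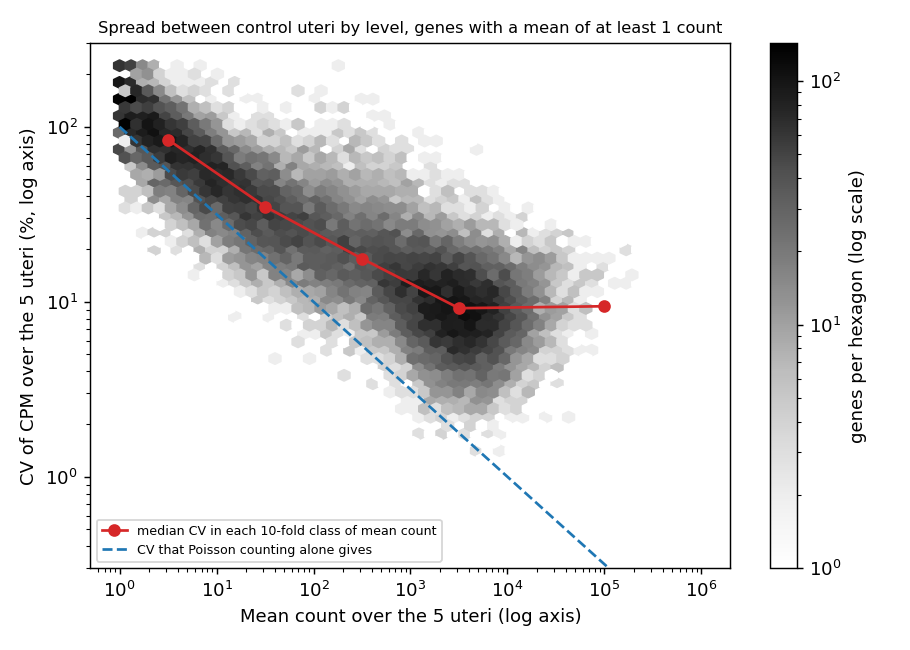
CV of CPM over the 5 control uteri against the mean count for every gene whose mean reached 1 count, as hexagons shaded by their number of genes, on log axes. The red line of medians falls from 84.5% to 9.19% and then levels off at 9.43%, above the dashed line of Poisson counting.

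The least variable protein-coding genes with a mean of at least 1000 counts had a CV near or under 1%. Nudt4, a diphosphoinositol phosphatase, stood at 217, 217, 217, 219 and 217 CPM (CV 0.469%), and Eif4g2, a translation factor, at 1581, 1575, 1600.3, 1577 and 1572 CPM (0.711%). Counting alone gives a median CV of 0.799% for means above 10000 counts, and Nudt4, with a mean of 15122, lay below it. From 1000 to 10000 counts it gives 1.82%, and Acox3, with a mean of 2496, had 0.599%. Genes picked as the lowest of many can fall under counting noise, so such values do not show an unusually steady level. The choice also rests on the scaling, since with TMM library sizes 0 of these 15 genes were among the 15 least variable, while all 15 of the most variable remained. Promoters of low and high spread differed in their letters. TATAAA in the 50 bases before the start, the TATA box, was in 2 of 1078 promoters of the tenth of genes with the lowest CV (0.186%), in 47 of 1078 with the highest (4.36%) and in 156 of 10781 in all (1.45%). The median number of CG pairs in 300 bases was 23, 8 and 21. Genes of low level have a higher CV, and the part of level in this difference was not tested. The 250 bases before the start are shown for Mcpt4 and Sprr2f, of high spread, where TATAAA stands at −32 and −29, and for Nudt4, where there is none, with TATAAA and CG in capitals. They lie at chr14:56062311-56062560 on the reverse strand, chr3:92364937-92365186 on the forward strand and chr10:95564147-95564396 on the reverse strand, and hold 2, 2 and 33 CG pairs.
Mcpt4: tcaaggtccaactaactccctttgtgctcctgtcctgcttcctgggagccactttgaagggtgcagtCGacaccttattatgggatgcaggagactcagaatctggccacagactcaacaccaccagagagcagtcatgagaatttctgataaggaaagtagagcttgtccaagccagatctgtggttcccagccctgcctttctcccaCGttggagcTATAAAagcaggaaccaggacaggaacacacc
Sprr2f: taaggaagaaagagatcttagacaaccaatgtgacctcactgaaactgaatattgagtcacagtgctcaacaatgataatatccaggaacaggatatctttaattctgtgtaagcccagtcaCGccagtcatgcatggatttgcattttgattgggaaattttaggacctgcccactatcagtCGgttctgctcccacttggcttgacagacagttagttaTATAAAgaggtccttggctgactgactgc
Nudt4: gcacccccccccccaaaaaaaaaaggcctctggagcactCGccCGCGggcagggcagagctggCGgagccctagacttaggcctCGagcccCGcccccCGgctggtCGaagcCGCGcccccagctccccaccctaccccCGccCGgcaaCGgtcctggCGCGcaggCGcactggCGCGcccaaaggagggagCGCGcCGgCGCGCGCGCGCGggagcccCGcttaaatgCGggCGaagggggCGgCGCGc

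At the other end, some genes were high in a single uterus or a pair of uteri. Zic5, a zinc finger factor of the neural tube, had 13.3 CPM in uterus 5 and no count in the others. Serpina1e, an antitrypsin of the liver, had 66.8 CPM in uterus 1 and 0.0459 to 0.248 CPM elsewhere. Slc5a5, the iodide transporter of the thyroid, had 22.6 CPM in uterus 1 and 0.949 to 1.77 CPM in the others, and Rab6b, a traffic protein of neurons, 41.1 CPM against 4.00 to 4.89. Trh, the thyrotropin-releasing hormone, had 10.6 and 12 CPM in uteri 4 and 5 and at most 0.0918 CPM in uteri 1 to 3. Gbp2b, an interferon-induced GTPase, had 15.7 and 42.3 CPM in uteri 2 and 3 and at most 0.154 CPM in the others, although its relative Gbp2 stood at 44.9 to 56.9 CPM in all 5.

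Altogether 846 of 14484 genes (5.84%) had 1 uterus apart, by a gap to the nearest other uterus, over the whole range, above Dixon's limit for 5 samples, which chance passes for about 1 gene in 20. It was uterus 1 in 277, uterus 5 in 229, uterus 2 in 139, uterus 3 in 131 and uterus 4 in 70. Gm43305, a processed transcript, had 0.140 CPM in uterus 1 and 607 to 895 CPM in the others. Uterus 1 was also low for Ifi202b, a DNA-binding interferon-induced gene, with 0 CPM against 11.1 to 31.0 CPM, for Zfp990 with 0.126 against 20.8 to 34.2 CPM and for Ifi44l with 0.126 against 12.1 to 20.3 CPM. In uterus 2 Rec8, a meiotic cohesin, had 3.70 CPM against 29.5 to 40.4 CPM, and Pik3c3, a lipid kinase of autophagy, 92.2 CPM against 36.3 to 42.8 CPM. In uterus 3 Ptpn5, a tyrosine phosphatase, had 27.0 CPM against 7.87 to 9.63 CPM.

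A set of 111 genes (0.766% of 14484) fell into 2 clusters of uteri at least 4-fold apart. This set was chosen after the values were seen. It held 48 of 13326 protein-coding genes (0.360%), 29 of 274 pseudogenes (10.6%) and 26 of 148 antibody segments (17.6%). The most frequent pattern was uterus 1 low and the other 4 high, with 49 genes, and uterus 1 alone was high for 8. Some of these genes lie close together, such as Zfp990, Zfp985, Masp2 and Gm13092 on chromosome 4, each within 5 Mb of the next and all low in uterus 1, although the next of the set, Tnfrsf9, 599385 bases on, was high in uterus 1. Of the 47 pairs of next neighbours within 5 Mb, 13 had the same high and low uteri, and of the 23 pairs without an antibody segment, 10 had. Because 49 of the 111 genes had 1 and the same pattern, pairs also match without lying close. The share among distant pairs was not computed, so no excess is claimed. On chromosome 12, Serpina1e (high in uterus 1) lies 47812 bases from Serpina9 (low in uterus 1), which lies 411986 bases from Serpina3n (low in uterus 1). The background of the mice is mixed, and whether their genomes differ at these loci was not tested.

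Several of the split genes are near copies of another gene, and reads can be shared between copies. For 29 of the split genes, called copies here, at least 30% of the 50-base stretches are also in a partner with a mean of at least 100 counts. Stretches were compared on both strands, so some of these may overlap their partner in the genome and not be a copy of it. The partner was lower where the copy was high in 19, with ranges apart in 12. Ranges apart were counted only in this direction, and some partners were higher where the copy was high, also with ranges apart. Glo1, for example, had 55.7 CPM in uterus 1, where its copy Gm13443 was low, and 92.2 to 122 CPM in the others. With 5 uteri, ranges can also lie apart by chance. Rplp0, a ribosomal protein and common reference gene, stood at 865, 558, 469.8, 1201 and 611 CPM, highest in uterus 4, while its pseudogene Gm8730 stood at 74.8, 153, 129.8, 3.15 and 171 CPM, lowest there. The pseudogenes Rplp0-ps1 and Gm14165, which share 26.7% and 39.1% of their stretches with other annotated genes, most of them with Gm8730, had 0.173 and 0.302 CPM in uterus 4 and 9.63 to 33.3 CPM elsewhere. Summing Rplp0 with these 3 copies lowered its CV from 40.0% to 24.0%. Eno1, the glycolytic enolase, had 94.3 CPM in uterus 1 and 49.2 to 61.2 CPM in the others, where its copy Eno1b had 9.30 to 11.7 CPM against 0.308 CPM in uterus 1. Hspa8 with its copy Gm15459 had a CV of 5.16%, and 13.1% alone. Levels of genes with copies are uncertain. Of the measured genes, 2004 (8.06%) share over 50% of their stretches with another gene. These include genes that overlap another in place, such as Folr2, which shares 52.6% with the antisense gene Gm10602. They also include mt-Co2, mt-Co3 and mt-Atp6, which had means under 10 counts while mt-Co1 was the highest gene of all.

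**Figure D5:**
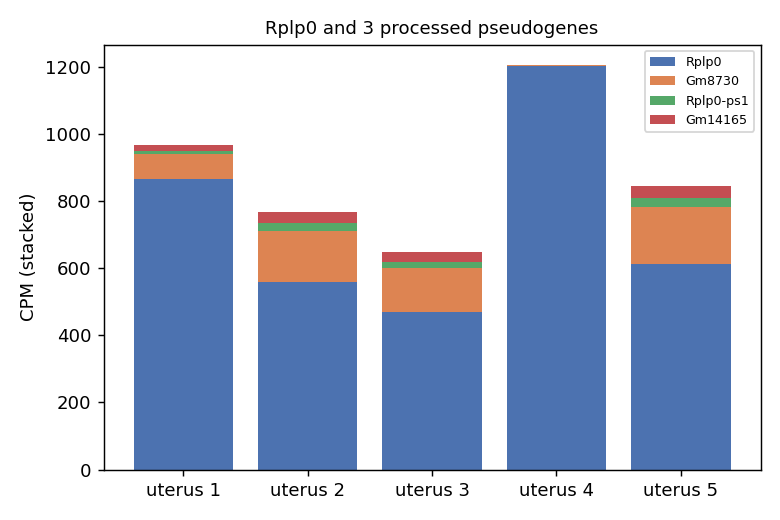
CPM of Rplp0 and of 3 processed pseudogenes, Gm8730, Rplp0-ps1 and Gm14165, in each of the 5 control uteri, as stacked bars from 0. Uterus 4 has the tallest Rplp0 bar, 1201 CPM, and almost none of the 3 copies, of which Gm8730 has 3.15 CPM there and 74.8 to 171 CPM in the others.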

How the data were processed

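RNA of 5 control uteri was sequenced as poly(A) libraries. Per the labels and the study's methods, the authors trimmed reads with Trim Galore 0.6.4 and cutadapt 1.18, checked them with FastQC 0.11.9, aligned them to GRCm38 with STAR 2.7.3a and deposited gene counts that were not normalized. Neither the annotation release nor whether counting used strand is given in the sources used here. Of 422 genes lying wholly under exons of the other strand, 151 had a mean of at least 1 count.

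From the deposited counts, CPM and TPM (union of GENCODE exons, 45143 identifiers matched, with the longest transcript as an alternative length), the mean, SD and CV were computed with Python 3.11.15, numpy 2.4.6 and pandas 2.3.3, and figures with matplotlib 3.10.9. CVs used genes with a mean of at least 100 counts. A uterus was called apart by Dixon's ratio above the 95% limit for 5 samples on log2(CPM + 0.1). The biological CV came from edgeR 4.0.16 in R 4.3.3, without groups, with TMM scaling, and DESeq2 1.42.0 was an alternative. On simulated counts with a biological CV of 20% for 25066 genes, of which 200 were also shifted in 1 uterus each, edgeR gave 21.7%. Uniqueness was read from 50-base stretches of annotated exons, compared on both strands. Promoters came from RefSeq (GRCm38.p6), with the start nearest to that of GENCODE and 14547 genes matched. Libraries held 65351817 to 72702411 counts, and 1 count was 0.0138 to 0.0153 CPM. No 2 libraries were alike within counting noise, with a chi-square per degree of freedom of 54.4 to 131. No test between groups was made, since a single group is described.

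The named genes were Arid1a, Ltf, the 15 nuclear genes highest by TPM, the 10 highest by CPM, the 15 most variable protein-coding genes (mean of at least 100 counts) and the 15 least variable (at least 1000), the 5 genes with the widest gap in each uterus, and members of 55 lists. Not all of them are printed. The members and lists were chosen with earlier results of these data known. Some genes are not reported here.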

Additional observations from a re-analysis of the deposited data

Results flagged for a closer look

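Of 249 named genes and 55 summed lists looked at, 42 had 1 uterus far from the other 4, by a gap to its nearest neighbour that, over the whole range, was above Dixon's limit for 5 samples, which chance passes in about 1 of 20 groups. Many of the genes had been named because they were apart, most or least variable, so the number is no measure of how common this is. The uterus concerned was uterus 1 in 15, uterus 2 in 6, uterus 3 in 6, uterus 4 in 7 and uterus 5 in 8. The ratio is given for each.

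Uterus 1 was low for the summed macrophage list (0.745), C1qb (0.720), Mrc1 (0.825), Ccr3 (0.764), the pericyte marker Rgs5 (0.852), Gm43305 (0.953), Ifi202b (0.822), Zfp990 (0.901) and Ifi44l (0.886). It was high for Arid1a (0.747), Jun (0.795), Serpina1e (0.858), Slc5a5 (0.812), Rab6b (0.915) and Tnfrsf9 (0.801). Rgs5 had 657 CPM in uterus 1 and 876 to 921 CPM in the others.

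Uterus 2 was low for Egfr (0.711), Gm38357 (0.723), Rec8 (0.868), Gm10478 (0.732) and Fbxo48 (0.714) and high for Pik3c3 (0.824). Uterus 3 was low for Igkv13-85 (0.792), Blk (0.831) and Gabrp (0.778) and high for Mal (0.750), Ptpn5 (0.838) and Grem1 (0.740).

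Uterus 4 was low for Cant1 (0.764), Gm14165 (0.849), Rplp0-ps1 (0.773) and Gm8730 (0.792) and high for Nudt4 (0.942), Gm13736 (0.787) and Ighv14-4 (0.775). For Nudt4 the whole range was only 217.1 to 219.5 CPM. Uterus 5 was low for Smarca4 (0.766), Pkm (0.792), Fkbp4 (0.764) and Gm5900 (0.737) and high for Zic5 (1.000), Ighv3-4 (0.868), Ighv1-5 (0.712) and Naip3 (0.742).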

How the results depend on the processing

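No paired analysis was possible because only 1 group is described and no test was made. The median CV of 11.1% was 12.4% over genes with a mean of at least 30 counts and 20% over all measured genes, and 10 to 11.7% when 1 uterus was left out, lowest without uterus 5 and 10.4% without uterus 1. The biological CV of 23.5% was 19.8% as DESeq2's median dispersion, 19.4% with edgeR's own filter and 20.3 to 25.1% when 1 uterus was left out, lowest without uterus 1. The 846 genes with 1 uterus apart became 550 among genes with a mean of at least 1000 counts, where fewer genes were looked at (5.54% of 9922), and 756 without uterus 1 (5.22% of 14477, with the limit for 4 samples, chosen after seeing the data). The 111 genes in 2 clusters became 44 with a pseudocount of 1 and 67 to 125 when 1 uterus was left out, lowest without uterus 1. These too were chosen after seeing the data. Of the 30 most and least variable genes, 15 were kept with TMM library sizes and 8 to 19 when 1 uterus was left out, lowest without uterus 1. In all, 16 of 49 alternatives for these summaries moved the value. Leaving out 1 uterus moved the mean of 42 of 679 named or listed genes by over 1.5 times, 15 of them without uterus 1, such as Serpina1e from 13.5 to 0.135 CPM and Slc5a5 from 5.58 to 1.34 CPM. It moved the summed level of 0 of 55 lists so far, but the ratio of highest to lowest uterus of 4, the eosinophil and neutrophil lists without uterus 1, and the interferon-stimulated and red blood cell lists without uterus 3 (the latter from 3.31 to 2.11). With the longest transcript as length, 10 of 91 neighbours in the order of a family changed places, and the first gene changed in 1 of 17 families, the SWI/SNF ATPases. The 5 animals of 1 group limit every spread given here. Counting noise is larger in genes of few counts, with a median CV from counting of 57.7% at a mean of 1 to 10 counts and 18.6% at 10 to 100, below the observed 84.5% and 35.0%.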
